A study of Mus musculus with 2 samples.

Results

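Histamine is made by the enzyme that Hdc encodes, broken down by the enzyme that Hnmt encodes, and sensed by receptors that include the products of Hrh1 and Hrh2. These 4 genes were read on 2 one-colour Agilent mouse arrays through every probe whose accession belongs to one of them in RefSeq's GRCm38.p6 gene table. The match gave 6 probes of 3 genes, 1 of Hdc, 2 of Hnmt and 3 of Hrh1, out of 27234 matched probes of 20659 genes, while no probe was matched to Hrh2, which was therefore not analysed here. The set was put together with the Hdc difference already known, so the Hdc values are a description and no test was made on them.

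One array held RNA from RAW246.1 cells given PBS, the mock treatment, and the other RNA from RAW246.1 cells given synthetic miR-122, a microRNA that hepatocytes make in abundance. The labels call the cells macrophages, place both cultures in DMEM, and describe no other agent, genotype or time of exposure. The treatment text of both samples is the same and names 5 μg/mL of synthetic miR-122, and the title of the miR-122 sample says that the microRNA was absent, so the groups rest on the source names. Each group held 1 array of 1 culture, so the differences below come without replicates and without a test. The array number limits the precision, and the errors given cover the measurement of a spot only. The study asked how liver-derived miR-122 acts on inflammatory activation of alveolar macrophages, and neither alveolar macrophages nor liver-derived miR-122 was measured here.

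A level is the log2 signal less the 75th percentile of its array, and a difference is the miR-122 level minus the PBS level. Before this scaling the 75th percentiles themselves had a difference of -0.28. A probe counts as well above background where the scanner software says so. The lowest processed signal that it marked in this way was 10.8 intensity units with PBS and 12 with miR-122. The median difference was 0.09 over the 15023 named genes that both arrays measured well above background.

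Histamine is a small amine formed from the amino acid histidine by histidine decarboxylase, which needs a form of vitamin B6 as cofactor. Mast cells and basophils store it in granules, whereas macrophages are known to make and release it on stimulation without storing it. Inside cells histamine is inactivated by histamine N-methyltransferase, and outside cells by diamine oxidase. The H1 receptor couples to calcium release, the H2 receptor to cyclic AMP, and the H3 and H4 receptors to inhibitory G proteins, with H4 found mainly on blood and immune cells.

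Hdc, the gene for histidine decarboxylase, was higher on the miR-122 array. Its single probe had a processed signal of 18.6 ± 2.95 intensity units with PBS and 536 ± 53.7 with miR-122, where the error is that of the scanner software for 1 spot. The PBS array was thus close to the limit of measurement and the miR-122 array far above it. The level was -4.50 with PBS and 0.63 with miR-122, a difference of 5.13 with a standard error of 0.27 from those spot errors, or 34.9-fold. In bulk RNA, more cells with the transcript and more transcript per cell cannot be told apart. Hdc ranked 10th from the top among the 15023 genes by this difference. It was the only one of the 2 members measured on both arrays to be at least 2-fold higher, where 4.57% of all genes were, and since the member was chosen from this contrast nothing is read from that count. Among all genes 1.78% were at least 2-fold lower. Of the genes past 2-fold 71.9% were higher, a share that was 50.8% with median scaling, 59.9% with quantile normalization and 40.5% with no scaling.

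The RefSeq promoter of Hdc is shown because Hdc carries the result. It is the 250 bases before the start that the table gives for Hdc, at chr2:126618679-126618928 on the minus strand of GRCm38.p6, with the motif matches in capitals.
Hdc: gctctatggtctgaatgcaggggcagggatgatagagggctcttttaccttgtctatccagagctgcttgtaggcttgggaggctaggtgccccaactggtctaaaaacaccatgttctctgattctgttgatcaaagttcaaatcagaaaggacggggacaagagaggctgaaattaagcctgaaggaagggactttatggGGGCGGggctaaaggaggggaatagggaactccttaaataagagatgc
Of 7 motifs searched on both strands, only the GC box GGGCGG matched, at bases -48 to -43 counted from the start. A GC box was present in 32.7% of 32851 promoter windows of the same length. The letters searched without a match were TATAAA for the TATA box (in 12.4% of windows), TGANTCA for AP-1 (6.75%), TGACG for the core of the cyclic AMP response element (17.8%), GGGANTTTC for NF-kB (0.941%), GAAANNGAA for the core of the interferon-stimulated response element (7.13%) and TTCNNNGAA for STAT proteins (7.02%). None of these motifs contains another. A match is a description of these letters, and no match says only that they are not in this window.

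The raw readings show how much of the low Hdc signal was background. The median spot signal was 69.0 on the PBS array over a local background of 16.0, and 629.5 on the miR-122 array over a local background of 18.5. The negative control spots, 153 on each array, had median signals of 46.0 with PBS and 48.0 with miR-122. On the PBS array 152 of the 153 control spots lay below Hdc and the highest control spot, at 79.0, lay above it, while on the miR-122 array all 153 lay below it and the highest read 66.0. Hdc stood 23.0 units above the control median with PBS and 581.5 units above it with miR-122. Hdc was higher with miR-122 under each background correction run, but the size of the fold depended on which was used. Taking off the local background alone gave a difference of 3.76, or 13.5-fold, and normexp with an offset of 50, a correction that damps dim signals, gave 3.14, or 8.85-fold. Taking off the control median, an alternative added after seeing the data, gave 30.4-fold. The log2 values deposited by the authors and quantile normalization both gave 31.2-fold.

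**Figure D1:**
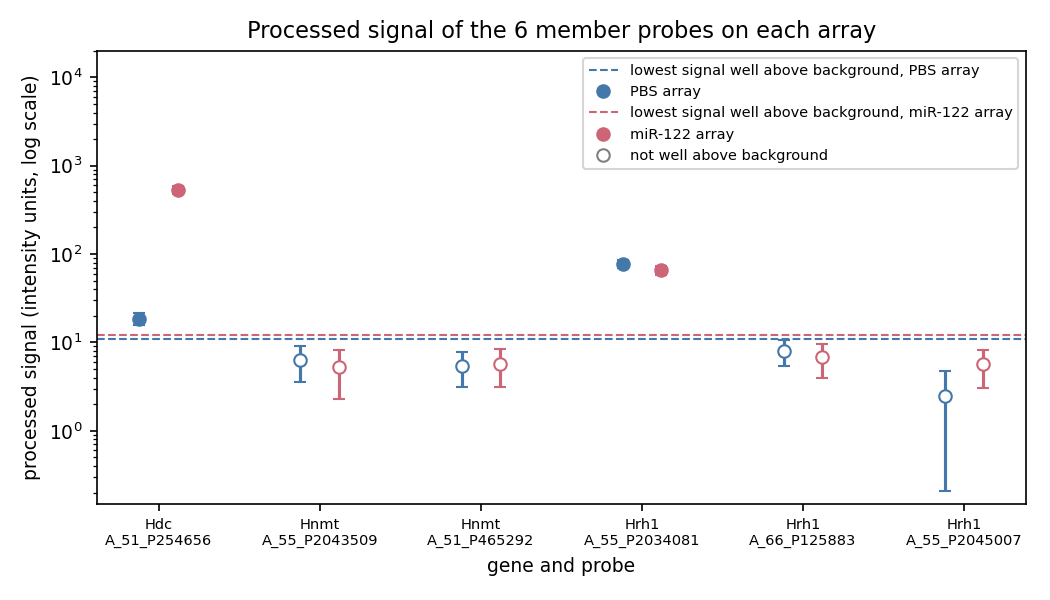
Processed signal in intensity units on a logarithmic axis for each of the 6 probes of Hdc, Hnmt and Hrh1 on the PBS and miR-122 arrays, with bars for the scanner software's error of 1 spot, open points for probes not well above background and dashed lines at the lowest signal well above background (10.8 and 12). Hdc lies at 18.6 with PBS and 536 with miR-122, and 1 probe of Hrh1 is the only other one above the lines.

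**Figure D2:**
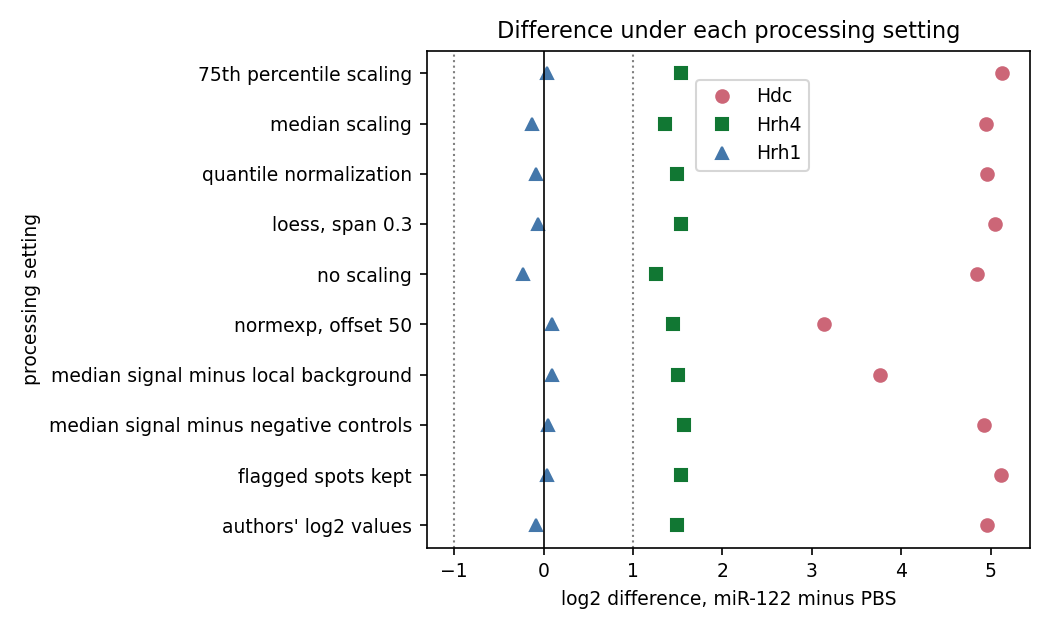
Log2 difference, miR-122 minus PBS, for Hdc, Hrh4 and Hrh1 under 10 processing settings, with dotted lines at 2-fold. Hdc lies between 3.14 and 5.13, Hrh4 between 1.26 and 1.57, and Hrh1 between -0.23 and 0.09, so that its sign turns with the setting.

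The Hdc spot lay in column 85, the last of the 85 columns of the array, in row 245 of 532. Local background around it was 16.0 with PBS and 18.0 with miR-122, as the median over 43 probe spots within 4 rows and columns. The 26 of these spots that were well above background on both arrays had a median difference of 0.18, from -0.69 to 1.13. None of them approached the Hdc difference. The brightest of the 7 spots next to it had a median signal of 1928 with PBS and 1661 with miR-122. The part of the spot's position in the Hdc difference was not tested.

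Genes beside Hdc in the GRCm38.p6 order stayed within 2-fold where both arrays measured them. Most genes did so, as 4.57% of all genes lay past 2-fold on the higher side and 1.78% on the lower. With so few neighbours, nothing particular to the Hdc locus is read from this. Of the 3 protein-coding genes on either side, Gabpb1 and Usp8 on one side differed by 0.31 and -0.09, and Atp8b4 and Dtwd1 on the other by -0.15 and 0.44. Slc27a2 and Usp50 were not well above background on either array. The genes whose pair of levels lay nearest to that of Hdc, by the Euclidean distance over the 2 arrays, were Ifit1bl1, Gm4951, Csf1, Gbp5 and Tlr3. Ifit1bl1, of an interferon-induced family, lay at a distance of 0.23, Gm4951 at 0.61, the macrophage growth factor gene Csf1 at 1.27, the guanylate-binding protein gene Gbp5 at 1.28 and the receptor gene Tlr3 at 1.41. Their differences were 5.45, 4.69, 3.72, 4.53 and 3.58, with the limit that Ifit1bl1 and Gbp5 have close relatives that may bind the same probe. With normexp these differences lay between 2.50 for Tlr3 and 3.30 for Ifit1bl1, against 3.14 for Hdc. Likeness over 2 arrays is a weak measure, because any gene that was dim with PBS and of middle brightness with miR-122 meets it.

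Hnmt, the gene for the methyltransferase that inactivates histamine inside cells, was not well above background on either array. Its first probe read 5.41 ± 2.31 with PBS and 5.76 ± 2.60 with miR-122 as processed signal. Its second probe read 6.35 ± 2.79 with PBS and 5.28 ± 2.99 with miR-122. The 2 arrays overlap within the error of a spot for both probes, and no fold is given. The median spot signals of the first probe, 52.0 and 55.5, exceeded those of 134 of the 153 negative control spots on each array, and those of the second, 59.0 and 61.0, exceeded those of 151 and 150. Hnmt was therefore not measurable with these probes, and the data give no direction for it.

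The receptor genes differed among themselves. Hrh1, the H1 receptor gene, had 1 of 3 probes well above background, with a processed signal of 76.9 ± 8.0 with PBS and 65.4 ± 6.99 with miR-122. Its levels were -2.45 and -2.41, a difference of 0.04 with a standard error of 0.22 from the spot errors. The sign of that difference turned with the scaling, from -0.23 with no scaling to 0.09 with normexp. The other probes of Hrh1 were not well above background. They read 8.01 ± 2.66 and 2.48 ± 2.27 with PBS, and 6.81 ± 2.86 and 5.64 ± 2.58 with miR-122. All 3 probes carry the same accession, and the files do not say which part of the transcript each one reads. Hrh1 was thus measured at a moderate signal with no difference beyond the spot error.

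Hrh4, the H4 receptor gene, was not among the 4 genes but stands in the wider list of histamine genes and was the other gene of that list past 2-fold. Its probe read 581 ± 58.1 with PBS and 1390 ± 139 with miR-122. The level was 0.46 with PBS and 2.0 with miR-122, a difference of 1.54 with a standard error of 0.20 from the spot errors, or 2.91-fold higher. Hrh4 was bright on both arrays, and its difference stayed between 1.26 and 1.57 over the scalings and background corrections. Among all genes 1.72% had a larger difference. Its spot lay in column 84 of the 85, and the 34 spots near it that were well above background on both arrays had a median difference of 0.07, from -0.71 to 1.28. Hrh3, the receptor gene known from neurons, read 18.0 ± 3.03 with PBS and 15.5 ± 3.10 with miR-122, with a difference of 0.06 whose sign turned with the scaling.

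**Figure D3:**
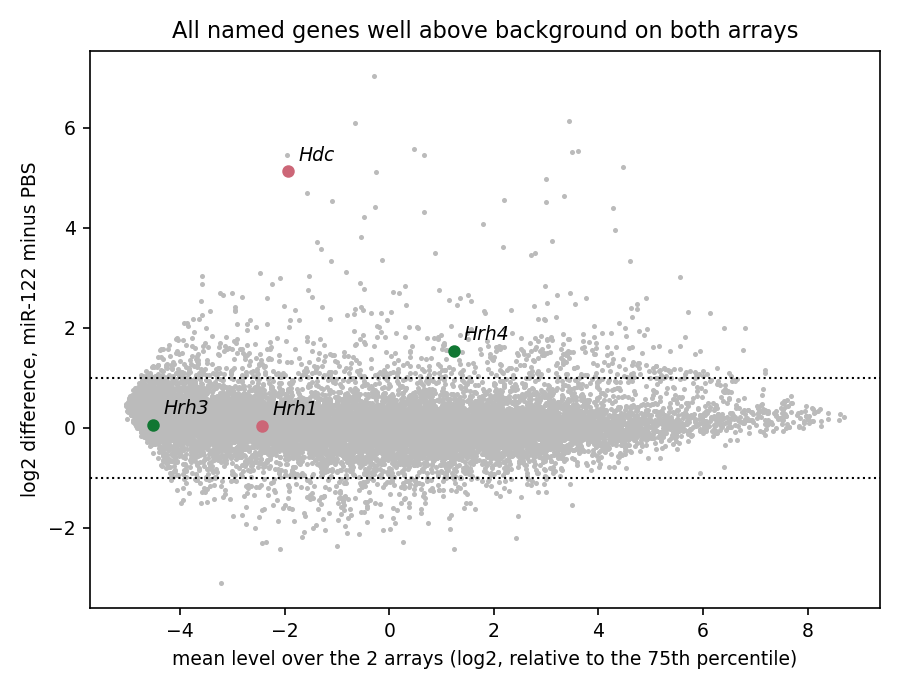
Log2 difference, miR-122 minus PBS, against the mean level over the 2 arrays, relative to the 75th percentile, for the 15023 named genes that both arrays measured, with dotted lines at 2-fold. Hdc (5.13) and Hrh4 (1.54) lie above the upper line, and Hrh1 (0.04) and Hrh3 (0.06), whose signs turn with the scaling, lie in the middle of the cloud.

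The remaining genes of histamine breakdown and transport stayed within 2-fold. The wider list held 16 genes, the 4 members included, of which 9 were well above background on both arrays, 2 on the PBS array only, 4 on neither and 1 had no matched probe. Of the 9, 2 were higher by 2-fold or more and 0 were lower by as much, where 4.57% of all genes were higher and 1.78% lower. One of the 2 is Hdc, which was chosen from this contrast. The median difference was 0.14 against 0.09 over all genes, and 0.13 without Hdc. Aoc1, the diamine oxidase gene, read 22.6 ± 3.27 with PBS and 20.6 ± 3.43 with miR-122, close to the lowest signals well above background. Its difference of 0.14 changed sign between scalings. Maob, whose product oxidises methylated histamine, was not well above background on either array. Aldh2 and Aldh7a1, which encode aldehyde dehydrogenases that act on the oxidised products, differed by -0.10 and 0.12, and the sign of Aldh7a1 turned with median scaling and with no scaling.

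Carriers of histamine across membranes were dim or close in level on the 2 arrays. Slc29a4, a monoamine transporter gene of the plasma membrane, read 25.1 ± 3.72 with PBS and 25.1 ± 3.88 with miR-122, a difference of 0.28 after scaling and 0.00 without it. Slc18a1, a vesicular monoamine transporter gene, read 121 ± 12.3 and 118 ± 12.1, a difference of 0.25 that was -0.03 with no scaling. Slc18a2, the vesicular transporter gene of histamine-storing cells, passed the background flag with PBS only, at 11.9 ± 2.61 against 8.72 ± 2.70, and Slc22a2 likewise, at 12.3 ± 2.51 against 11.2 ± 2.69, so neither gives a fold. The organic cation transporter gene Slc22a3 was not well above background on either array. Past the synthesis step itself, the measured genes for storage, export and breakdown of histamine therefore gave no value past 2-fold.

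**Figure D4:**
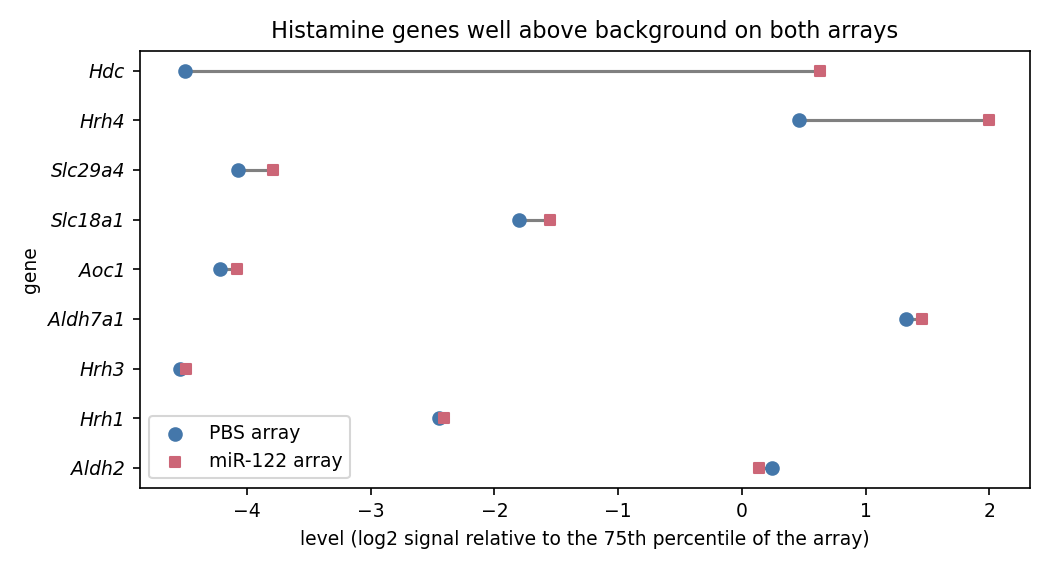
Level on the PBS array (circles) and on the miR-122 array (squares), in log2 units from the 75th percentile of each array, for the 9 histamine genes well above background on both. The lines of Hdc (from -4.50 to 0.63) and Hrh4 (from 0.46 to 2.0) are long and those of the other 7 genes are short, under 2-fold.

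Genes that supply or consume histidine and the vitamin B6 cofactor went both ways. Of 19 listed genes, 14 were well above background on both arrays, of which 1 was 2-fold higher or more and 1 was 2-fold lower or more, beside 4.57% and 1.78% of all genes. The median was -0.03, against 0.09 over all genes. Slc15a3, a lysosomal transporter gene for histidine and short peptides, had levels of 0.72 with PBS and 2.0 with miR-122, 2.43-fold higher. Slc43a2, a gene for a carrier of large neutral amino acids, had levels of 3.21 and 1.82, 2.61-fold lower. Slc3a2, the heavy chain shared by several amino acid carriers, differed by 0.64. The phosphatase gene Pdxp, whose product removes the phosphate from the cofactor, differed by -0.86 with its brightest probe and by 1.31 with its other probe, so its direction was not settled. Pdxk, a kinase gene of cofactor synthesis, differed by -0.55. Hal, the gene of the competing route that removes ammonia from histidine, differed by 0.03 at a dim level of -4.15 with PBS. Uroc1, the next enzyme on that route, was well above background on the miR-122 array only, at a level of -4.13 against -5.57 with PBS. Because the PBS reading of Uroc1 failed the background flag, it gives no fold.

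Genes that carry histamine receptor signals had a median of 0.10 over 27 genes well above background on both arrays, of 28 listed. There were 14 positive and 13 negative differences, with 3 genes higher by 2-fold or more and 0 lower by as much, beside 4.57% and 1.78% of all genes. Rgs1 and Rgs2, which encode regulators that shorten G protein signals, were 2.94-fold and 2.81-fold higher, from levels of 3.10 and 3.50 with PBS to 4.65 and 4.99 with miR-122. Both probes of Rgs2 were higher, by 1.29 and 1.49. Itpr1, a gene for a calcium release channel of the endoplasmic reticulum, was 2.21-fold higher. It reached 2-fold in 8 of 10 settings, and stood at 1.96-fold after median scaling and 1.83-fold with no scaling. Arrb1, the gene of an arrestin that uncouples receptors, differed by -0.72. The G protein gene Gnaq, used by the H1 receptor, differed by -0.48, and Gnas, used by the H2 receptor, by 0.10, whose sign turned under other scalings. These genes serve many receptors besides those for histamine.

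Markers of cells that store histamine were partly below background. Of 12 mast cell markers, 6 were well above background on both arrays, 5 on neither and 1 had no matched probe. The 5 were Kit, Ms4a2, Cpa3, Gata2 and Mrgprb2, which include the stem cell factor receptor and the beta chain of the IgE receptor. The summed processed signal of the 6, which was not scaled between arrays, was 3670 with PBS and 2700 with miR-122. Mcpt4 was the brightest of the 6 and weighs most in that sum. Of the 6 differences 4 were positive and 2 negative, with a median of 0.21, against 0.09 over all genes. None reached 2-fold higher and 1 reached 2-fold lower, where 4.57% of all genes were higher and 1.78% lower by as much. With so few genes nothing is read from such counts, here or in the marker lists that follow. Fcer1a, Cma1, Hpgds and Tpsb2 differed by 0.56, 0.43, 0.22 and 0.20, although another probe of Tpsb2 differed by -0.84 and Hpgds and Tpsb2 were at -0.05 and -0.08 with no scaling. Fcer1a and Cma1 were dim, at levels of -4.90 and -5.01 with PBS, and differed by 0.27 and 0.12 with quantile normalization. Mcpt4, a mast cell protease gene, had levels of 2.50 and 2.45, and Il1rl1, the receptor gene for interleukin 33, was 2.23-fold lower on the miR-122 array. Of 6 basophil markers 4 were well above background on both arrays, with an unscaled summed signal of 84.1 and 99.9 and differences from 0.34 to 0.89. These 4 were dim, at PBS levels from -4.90 to -3.63, and with no scaling they differed by 0.07 to 0.61. The basophil protease gene Mcpt8 was not well above background on either array. Of 9 neutrophil markers, 6 were well above background on both arrays with differences from 0.08 to 0.63, of which those of Elane and Csf3r changed sign between scalings, and the unscaled summed signal of 7 was 30300 with PBS and 28300 with miR-122. Csf3r, at a level of 6.06 with PBS, was the brightest of the 7 and weighs most in that sum. Of 5 markers of enterochromaffin-like cells, the histamine cells of the stomach, 2 were well above background on both arrays, Syp with a difference of -0.01 and Cckbr with 0.13, or 1.05 with another probe of Cckbr. The granule protein gene Chga was well above background with miR-122 only, at a level of -4.17 against -5.18 with PBS. That PBS reading failed the background flag, so no fold is given. Slc18a2 passed the flag with PBS only, and Chgb on neither array. Of 10 macrophage markers 8 were well above background on both arrays, among them Csf1r, Cd14, Ctss and Itgam, while Mertk was not and Cd68 had no matched probe. Of the 8 differences 4 were positive and 4 negative, with a median of -0.16, against 0.09 over all genes. The Fc receptor gene Fcgr1 differed by 3.34, or 2.39 with normexp, and the other 7 macrophage markers differed by less than 2-fold in level. Adgre1, Lyz2, Csf1r and Itgam differed by -0.58, -0.71, -0.78 and -0.85, and their brightest probes were negative in all 10 settings. With that probe Csf1r was past 2-fold lower with no scaling (-1.05), and Itgam with median scaling (-1.03) and no scaling (-1.13). The 3 probes of Csf1r differed by -0.78 to -0.06, so the size of its difference depended on the probe. The probes of Itgam differed by -0.85 to 0.36, so its direction was not settled.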

How the data were processed

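Per the file headers, Agilent Feature Extraction 11.0.1.1 made the deposited scanner files, which hold a processed spot intensity (background-subtracted and detrended, not normalized between arrays) and median spot and local background intensities. The series matrix deposited by the authors holds log2 values, and how they were normalized was not stated in any source used here. Each column correlated at 0.9967 or 0.9973 with the log2 signal of its own array and at 0.9854 or 0.9848 with the other, and both had a median of 5.159, so the scale is log2, not centred by gene.

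Of 44397 spots per array, 1377 controls and the flagged spots (145 with PBS, 196 with miR-122) were left out. Log2 processed signals were scaled on the 75th percentile over 39429 probes. A gene took its brightest probe well above background on at least 1 array. No test is possible with 1 array per group, so genes were counted at 2-fold.

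Named were the members, the histamine genes, up to 4 genes of the other lists by size of difference, the 5 genes nearest to Hdc, and the reference genes Actb, Gapdh and Hprt, which differed by 0.21, 0.18 and -0.25, the first 2 with a sign that turned between scalings. Gnaq, Gnas, Pdxk, Hal, Uroc1, genes beside Hdc and single markers were named outside that rule. Of the listed genes 2 are not reported here by name. Members and lists were chosen with earlier results of these data known. Counting was tested on simulated data. Alternatives, whose effects the closing section gives, were other scalings, background corrections, the authors' values, the mean over a gene's probes, use of flagged spots, and other filters and thresholds. R 4.3.3, limma 3.58.1, Python 3.11.15, numpy 2.4.6 and pandas 2.3.3 were used.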

Additional observations from a re-analysis of the deposited data

How the results depend on the processing

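Values moved where they shifted by more than 0.30, the pooled standard deviation between probes of a gene over 3575 genes, or, for shares of genes, by over 1.5 times. Hdc moved to 3.14 with normexp and to 3.76 with local background taken off, and was past 2-fold under every setting run. Hrh1 was 0.52 as the mean over its 3 probes, of which 2 were not well above background. The shares of genes at least 2-fold higher and lower, 4.57% and 1.78%, were 2.62% and 3.85% with no scaling, 2.59% and 0.945% with normexp, 12.1% and 5.99% at 1.5-fold, and 0.812% and 0.113% at 4-fold. Without a filter on dim probes, 1358 and 451 genes were past 2-fold in place of 687 and 268, or 6.57% and 2.18% of the genes then counted. The lower share was 3.04% with median scaling and 1.18% with local background taken off. The median over all genes moved by -0.18 with median scaling, by -0.12 with quantile normalization or the authors' values, and by -0.28 with no scaling. List medians moved by less than 0.30. The signs of the histamine and receptor signalling medians turned between scalings, and that of the histidine median, negative under each scaling, was 0.04 as the mean over probes. Hnmt, below background on both arrays, and Hrh2, with no probe, gave no value under any setting. No paired analysis was possible because each group held 1 array, and for the same reason no array could be left out. Signal over background limits Hdc on the PBS array.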

Other observations

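Genes of other enzymes that use the vitamin B6 cofactor to split off a carboxyl group or cleave a lipid, and of their relatives, stayed within 2-fold where both arrays measured them. The list of 9 genes was chosen after the data were seen. Of these 9, 5 were well above background on both arrays, with differences from -0.04 to 0.49 and a median of 0.22, against 0.09 over all genes. None of the 5 was past 2-fold, where 4.57% of all genes were higher and 1.78% lower by as much. Odc1, the ornithine decarboxylase gene of polyamine synthesis, had levels of 7.43 with PBS and 7.91 with miR-122, and its 3 probes differed by 0.17 to 0.49. Azin1 and Azin2, which encode inhibitors of the antizyme that restrains that enzyme, differed by 0.22 and 0.37, Sgpl1, which cleaves sphingosine phosphate, by 0.16, and Csad, an enzyme of taurine synthesis, by -0.04. The signs of Azin1, Sgpl1 and Csad turned between processing settings. Ddc, which makes dopamine and serotonin, and Gadl1 passed the background flag with PBS only and give no fold, and Gad1 and Gad2, which make the transmitter GABA, passed it on neither array.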
